A study of Mus musculus with 9 samples.

Results

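Collagens are the most abundant proteins of skin, tendon and bone, and the genes that encode their chains were followed here through myeloid cells of a healing incision. The collagen chain genes were taken as all genes whose symbol is Col, a number, a and a number, and 44 of the 22180 genes measured met that rule. They were measured by 47 probe sets, and for the 3 genes with more than 1 probe set the one with the highest mean over the 9 arrays was used. The classes were fibrillar collagens (11 genes), the type IV chains of basement membranes (6), short-chain network collagens (3), the type VI chains of beaded filaments (6), the anchoring fibril collagen (1), fibril-associated collagens (9), transmembrane collagens (4), multiplexins (2) and other collagens (2).

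The cells came from the plantar hindpaw of C57BL/6J mice, all males 8 weeks of age, and were taken 24 h after incision. Cells that carried CD11b and lacked Ly6G were sorted by flow cytometry into Ly6C low, Ly6C medium and Ly6C high gates, with 3 arrays per gate. CD11b is an integrin chain of myeloid cells, Ly6G is a surface protein of neutrophils, and Ly6C is high on monocytes that have recently left the blood. Every gate came from wounded paws, no unwounded paw is among the 9 arrays, and the labels do not say whether replicates within a gate came from different animals or from pools, so the p-values speak only of variation among these samples, and that variation may be technical. RNA was amplified before hybridization to Affymetrix arrays. Values are log2 intensities, so a difference of 1 is a 2-fold change. They rank arrays for 1 gene and do not rank genes against each other.

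A collagen chain is built from repeats that begin with glycine, and its chains wind around each other into a helix. Fibrillar collagens of types I, III and V are secreted as procollagens, trimmed outside the cell and cross-linked into fibrils, and in skin they are made mostly by fibroblasts. Type IV forms the sheet of basement membranes under epithelium and around vessels, and type VI forms fine filaments beside cells.

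The sorted identity was checked on marker genes. For the Ly6C gene Ly6c2 the mean was 8.33 ± 0.93 (SD, n = 3) in Ly6C low, 11.22 ± 0.04 in Ly6C medium and 12.27 ± 0.20 in Ly6C high. Itgam, which encodes CD11b, lay between 10.43 and 11.14 on all 9 arrays. Ptprc, the common leukocyte antigen, lay between 10.10 and 10.77, and Csf1r, the receptor for the macrophage growth factor, between 10.38 and 10.94. For Itgam and Ptprc every low array lay below every high array, as for 8.76% of all genes. Their low minus high differences were -0.44 and -0.39 (limma adjusted p = 0.0579 and 0.1425). The median of the genes measured was 4.16 to 4.30 per array.

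In Ly6C low cells, the chains of the dermal fibrils were lower than in Ly6C high cells, and no collagen gene was called higher. Of the 44 genes, 7 were lower in low (limma adjusted p under 0.05 over all genes), a share of 15.9% against 2.32% of all genes tested. In either direction 5.67% of all genes passed and 3.35% were higher. The 7 genes were Col1a1, Col1a2, Col3a1, Col5a1 and Col5a2 of the fibrillar class, Col6a1 of the type VI chains and Col4a1 of the type IV chains. In Ly6C medium against Ly6C high, 5 of the 44 were lower (11.4%, against 0.198% of all genes) and 0 were higher (0.0406% of all genes, and 0.239% in either direction). Those 5 were Col1a1, Col1a2, Col3a1, Col5a2 and Col4a1. Between low and medium 0 of 44 passed in limma (of all genes 1.93% passed in either direction, 0.541% lower and 1.38% higher). At an unadjusted p under 0.05, 10 of 44 were lower in low than in high (against 7.46% of all genes), 10 in medium than in high (3.81%) and 2, Col1a2 and Col3a1, in low than in medium (5.53%). The comparisons share arrays, low and medium both being set against the same Ly6C high arrays.

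The median over all 44 collagen genes was a log2 difference of -0.02 between low and high, beside 0.01 over all genes. Differences of -1 or less were found for 7 of the 44 genes (15.9%), against 1.53% of all genes. Between medium and high 6 of 44 reached that size (13.6%, against 0.636%), and between low and medium only Col1a2 did (0.649% of all genes). By class, the medians between low and high were -0.25 for fibrillar, -0.54 for type VI, -0.01 for type IV and -0.03 for fibril-associated collagens. The counts lower in low were 5 of 11 fibrillar, 1 of 6 type VI and 1 of 6 type IV genes. In the fibril-associated, short-chain network, anchoring fibril, transmembrane, multiplexin and other classes, limma passed 0 genes in any of the 3 comparisons.

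The calls of medium against high depended on which arrays were in the fit. Of all genes 53 differed, 9 higher and 44 lower in medium. Without any 1 of the 3 medium arrays, or without Ly6C high replicate 2, 0 of the 5 collagen calls remained, and over all genes 2 to 12 remained as a count. Fitting only the medium and high arrays also left 0 collagen calls, with adjusted p-values of 0.125 to 0.162 for the 5 genes. With the low arrays left out in turn, 1 or 2 collagen genes passed. The calls of low against high for Col1a1, Col1a2, Col3a1, Col4a1 and Col5a2 held for all 9 single-array omissions (up to 0.0274, Col5a2 without Ly6C low replicate 1).

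**Figure D1:**
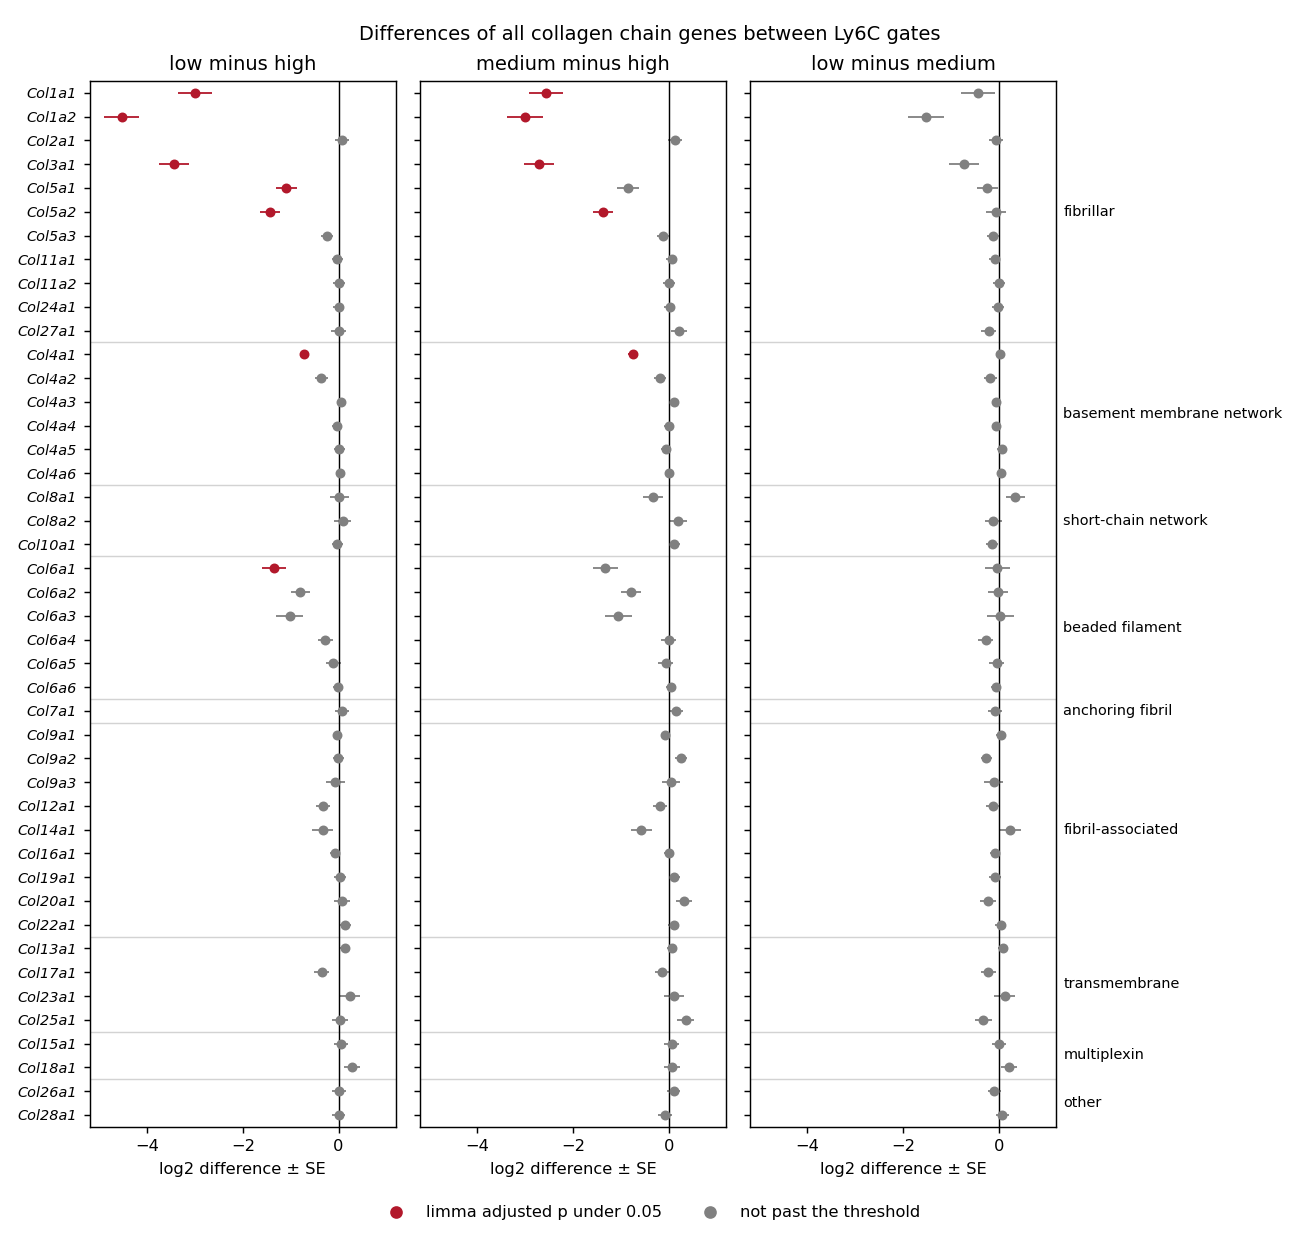
Log2 differences (points, with SE of the limma fit as bars) of the 44 collagen chain genes between gates, grouped by class from top to bottom. Red points passed a limma adjusted p of 0.05. The red points are chains of types I, III, V, VI and IV in the low minus high panel and of types I, III, V and IV in the medium minus high panel, and the low minus medium panel has no red point.

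Type I collagen, the main fibril of skin and tendon, is made of chains from Col1a1 and Col1a2. Col1a2 stood at 5.99, 5.50 and 5.72 in Ly6C low, 6.86, 7.75 and 7.17 in Ly6C medium and 10.82, 10.61 and 9.36 in Ly6C high (replicates 1, 2 and 3). The gates did not overlap for Col1a2, and low and medium differed from high by more than the spread within any gate. The low minus high difference of -4.53 (SE 0.37) made Col1a2 23.1-fold lower in low (limma adjusted p = 0.000428), and it ranked 2 from the most negative of all 22180 genes. In medium it was 8.03-fold lower than in high (log2 difference -3.0, adjusted p = 0.0210, not held for 6 of the 9 single-array omissions, up to 0.125), and low against medium gave -1.52 (adjusted p = 0.0835).

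Col1a1 stood at 6.17, 5.61 and 5.51 in Ly6C low, 6.27, 5.89 and 6.42 in Ly6C medium and 9.55, 8.71 and 8.03 in Ly6C high. Low and medium overlapped, and both lay below every high array. Against high the gene was 8.00-fold lower in low (difference -3.0, SE 0.35, limma adjusted p = 0.00210) and 5.93-fold lower in medium (-2.57, adjusted p = 0.0269, not held for 7 of the 9 omissions, up to 0.145).

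Col3a1 encodes the chain of type III collagen, which is laid down early in wounds and lies in fibrils beside type I. It stood at 5.11, 5.38 and 5.38 in Ly6C low, 6.22, 5.62 and 6.22 in Ly6C medium and 9.34, 8.86 and 7.97 in Ly6C high. The gates did not overlap. The difference from high was -3.43 in low (10.8-fold lower, SE 0.31, limma adjusted p = 0.000846) and -2.71 in medium (6.53-fold lower, adjusted p = 0.0176, not held for 4 of the 9 omissions, up to 0.0972).

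Type V collagen sits inside type I fibrils and limits their thickness. Col5a2 stood at 3.79, 4.0 and 4.30 in Ly6C low, 3.89, 4.13 and 4.23 in Ly6C medium and 5.87, 5.43 and 5.08 in Ly6C high. Low and medium covered nearly the same range, and every high array lay above both. Relative to high, Col5a2 was lower 2.69-fold in low (limma adjusted p = 0.00561) and 2.60-fold in medium (adjusted p = 0.0441). The call in medium did not hold for 8 of the 9 omissions (up to 0.230). Its neighbour on chromosome 1 is Col3a1, with no other protein-coding gene between their starts in the RefSeq annotation.

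Col5a1, the partner chain of type V, stood at 4.13, 4.18 and 4.08 in Ly6C low, 4.45, 4.41 and 4.26 in Ly6C medium and 5.84, 4.89 and 4.94 in Ly6C high. Replicate 1 set the high mean, and every high array still lay above the other gates. Its level in low lay 2.13-fold below high (limma adjusted p = 0.0239). That call did not hold when any 1 of the 3 low arrays was dropped (up to 0.0800) or when the medium arrays were kept out of the fit (0.0840). The difference from high was -0.85 in medium (adjusted p = 0.326). Col5a3, a further type V chain, was at 4.74 to 4.81 in low, 4.77 to 5.07 in medium and 4.86 to 5.22 in high, with an adjusted p of 0.357 for low against high in limma.

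The fibrillar chains of cartilage, Col2a1, Col11a1 and Col11a2, did not pass in limma. Their low minus high differences were 0.08, -0.02 and 0.01 (adjusted p = 0.883, 0.962 and 0.990).

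**Figure D2:**
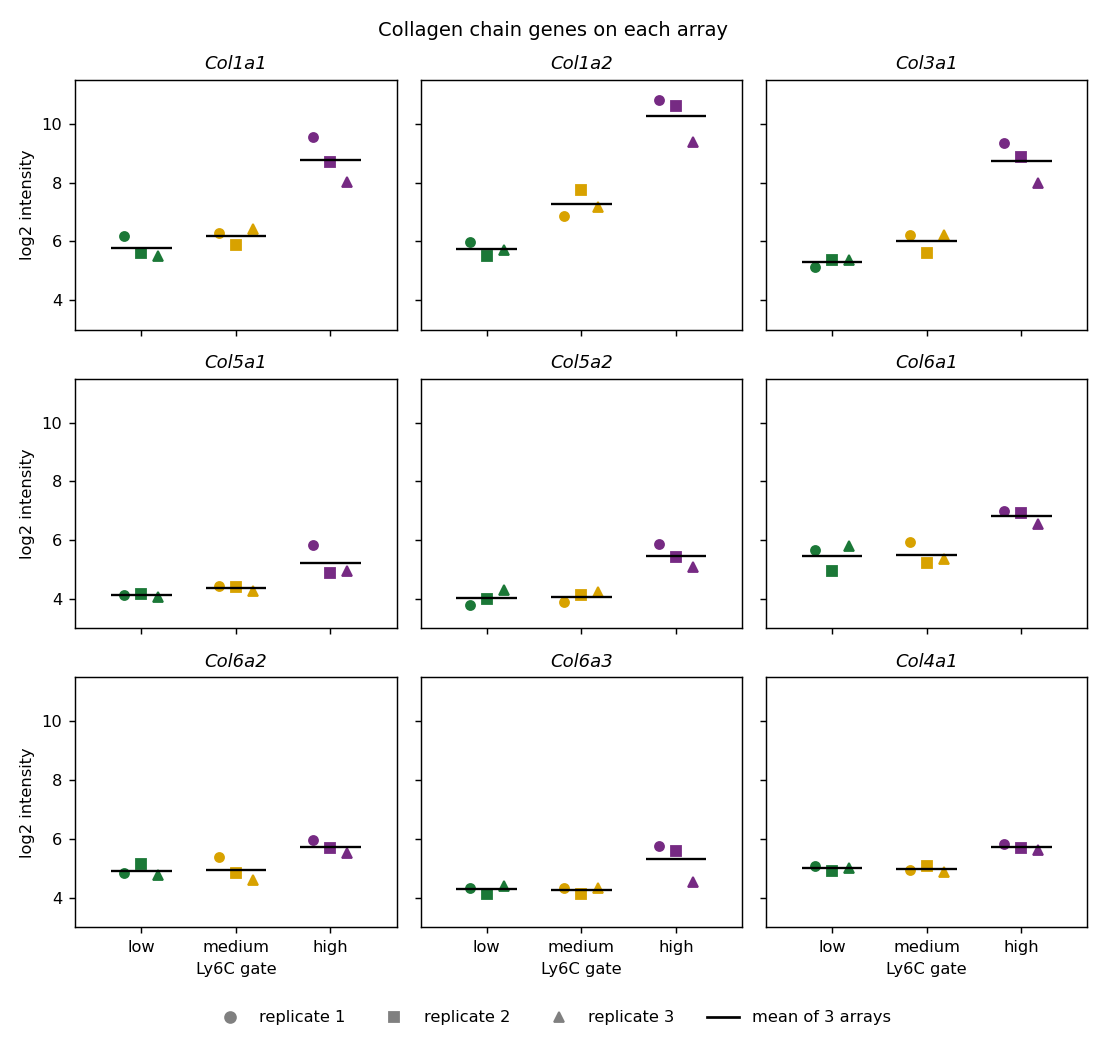
Log2 intensity of 9 collagen chain genes on each array, by Ly6C gate, with a symbol per replicate and a bar for the mean of 3 arrays. In every panel the 3 high arrays lie above the low and medium arrays, and Ly6C high replicate 3 is the lowest high array in every panel but Col5a1.

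Type VI collagen was represented by 6 chains, of which Col6a1, Col6a2 and Col6a3 form the classical molecule. Col6a1 stood at 5.66, 4.96 and 5.80 in Ly6C low, 5.94, 5.21 and 5.36 in Ly6C medium and 6.99, 6.94 and 6.54 in Ly6C high. All high arrays lay above the others. Its level in low lay 2.55-fold below high (limma adjusted p = 0.0187), which did not hold when Ly6C low replicate 1 or 2 or Ly6C high replicate 1 or 2 was dropped (up to 0.0654). In medium the difference from high was -1.32 (adjusted p = 0.124).

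Col6a2 and Col6a3 did not pass in limma, and Col6a2 was chosen for description after its values were seen. Col6a2 was at 4.86, 5.17 and 4.76 in Ly6C low, 5.37, 4.84 and 4.59 in Ly6C medium and 5.95, 5.69 and 5.53 in Ly6C high (low minus high -0.80, adjusted p = 0.0625). Col6a3 was at 4.35, 4.12 and 4.39 in Ly6C low, 4.32, 4.11 and 4.32 in Ly6C medium and 5.78, 5.60 and 4.54 in Ly6C high (low minus high -1.02, adjusted p = 0.0729). Col6a3 passed in limma for 1 of the 9 single-array omissions, that of Ly6C high replicate 3, the high array nearest to the other gates (difference -1.41). In the remaining omissions its limma adjusted p was up to 0.205, without Ly6C low replicate 2. The further chains Col6a4, Col6a5 and Col6a6 differed between low and high by -0.28, -0.11 and -0.02.

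Among the type IV chains, Col4a1 and Col4a2 are made together in most basement membranes. Col4a1 stood at 5.08, 4.92 and 5.0 in Ly6C low, 4.93, 5.08 and 4.89 in Ly6C medium and 5.82, 5.70 and 5.62 in Ly6C high. The spread within each gate was small, at an SD of 0.08 in low and 0.10 in medium and in high, and low and medium overlapped below all high arrays. Relative to high, Col4a1 was lower 1.64-fold in low (limma adjusted p = 0.00503) and 1.68-fold in medium (adjusted p = 0.0269). The call in medium did not hold for 8 of the 9 omissions (up to 0.125). Col4a2, described after its values were seen, was at 4.61, 4.20 and 4.67 in Ly6C low, 4.67, 4.67 and 4.66 in Ly6C medium and 4.96, 4.76 and 4.85 in Ly6C high. Its difference was -0.36 between low and high (adjusted p = 0.176) and -0.19 between medium and high (adjusted p = 0.791). Whether the differences of Col4a1 and Col4a2 differ from each other was not tested. Col4a3, Col4a4, Col4a5 and Col4a6, chains of kidney and other special membranes, were below the array median on all 9 arrays, with differences between low and high of -0.04 to 0.06.

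Of the genes lower in both comparisons against high, Col1a1 and Col5a2 had no promoter window. The start regions of the other 3 are shown. They are windows of 250 bases before to 50 bases after the annotated start, from RefSeq on GRCm38.p6, written 5′ to 3′ on the strand of the gene, with each CCAAT (or ATTGG, the same letters on the opposite strand) in capitals. The Col1a2 window lies at chr6:4505368-4505667 on the plus strand, the Col3a1 window at chr1:45311288-45311587 on the plus strand and the Col4a1 window at chr8:11312777-11313076 on the minus strand.
Col1a2: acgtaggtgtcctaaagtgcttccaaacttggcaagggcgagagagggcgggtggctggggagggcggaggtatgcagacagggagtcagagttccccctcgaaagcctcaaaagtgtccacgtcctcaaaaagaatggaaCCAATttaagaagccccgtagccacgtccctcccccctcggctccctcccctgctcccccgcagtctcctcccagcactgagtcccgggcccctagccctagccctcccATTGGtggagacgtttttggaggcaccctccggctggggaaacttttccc
Col3a1: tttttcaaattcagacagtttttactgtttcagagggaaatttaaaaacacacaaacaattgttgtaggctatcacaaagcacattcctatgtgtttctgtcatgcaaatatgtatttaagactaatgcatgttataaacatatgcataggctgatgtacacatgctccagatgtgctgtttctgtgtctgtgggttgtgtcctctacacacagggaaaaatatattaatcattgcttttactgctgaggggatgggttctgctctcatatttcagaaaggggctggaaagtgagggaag
Col4a1: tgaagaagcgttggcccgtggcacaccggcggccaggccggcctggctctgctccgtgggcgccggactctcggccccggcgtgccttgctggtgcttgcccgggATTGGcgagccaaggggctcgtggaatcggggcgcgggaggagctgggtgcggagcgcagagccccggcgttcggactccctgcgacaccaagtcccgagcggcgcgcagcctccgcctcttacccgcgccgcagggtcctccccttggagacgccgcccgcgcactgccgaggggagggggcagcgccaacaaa

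The Col1a2 window holds 2 CCAAT matches, the Col4a1 window 1 and the Col3a1 window 0. Their G and C content is 61.0%, 74.0% and 37.7%, with a median of 52.7% over all promoter windows and 59.8% over the collagen windows. The Col4a1 window overlaps that of Col4a2, on the opposite strand, by 78 bases, and the annotated starts lie 21 bases apart. Each start lies past the other in its direction of transcription, so the annotated 5′ ends of the genes overlap. Of 44 collagen genes, 35 had at least 1 window. A CCAAT in either direction was in 13 of those 35 (37.1%), against 41.1% of the 27025 genes with a window. TATAAA in either direction was in 5 of 35 (14.3%, against 15.7%), Col3a1 among them. GGGCGG in either direction was in 22 of 35 (62.9%, against 38.2%), among them Col1a2, Col4a1 and Col5a1. It is made of G and C only, and the shares were not adjusted for the G and C content of the windows. These matches describe letters in a window and show no binding.

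The 37 genes past the threshold in no comparison had values between 2.66 and 5.95, and 15 of the 44 collagen genes were below the array median on all 9 arrays. In all, 25 of 44 (56.8%) were above the array median on at least 3 arrays, against 52.0% of all genes, and 4 of 44, Col1a1, Col1a2, Col3a1 and Col6a1, reached a log2 value of 6 on 3 or more arrays. All 3 high arrays of each of these 4 genes were above 6, so passing such a filter came with being high in Ly6C high.

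In the classes without a call the member with the highest mean is given as an example. Col9a2, a fibril-associated chain of cartilage, averaged 5.50 ± 0.11 in Ly6C low, 5.76 ± 0.10 in Ly6C medium and 5.50 ± 0.19 in Ly6C high (SD, n = 3 each). Col7a1, the anchoring fibril chain that fastens epidermis to dermis, averaged 4.59 ± 0.14, 4.67 ± 0.28 and 4.52 ± 0.01 in low, medium and high. Col18a1, the multiplexin that carries the endostatin fragment, averaged 4.68 ± 0.18, 4.47 ± 0.15 and 4.41 ± 0.30. The 3 genes did not pass in limma between any gates (adjusted p of 0.389 or more).

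Col8a1, a network chain of vessel walls, averaged 4.23 ± 0.41 in Ly6C low, 3.89 ± 0.14 in Ly6C medium and 4.21 ± 0.19 in Ly6C high. Col23a1, a transmembrane collagen, averaged 4.74 ± 0.32, 4.62 ± 0.40 and 4.51 ± 0.09 in low, medium and high. Col26a1, of the other class, averaged 5.47 ± 0.08, 5.56 ± 0.23 and 5.46 ± 0.18. These 3 chains did not pass in limma in any comparison.

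Counted without a model, 12 of 44 collagen genes had every low array below every high array (27.3%, against 8.76% of all genes), and 1, Col13a1, had every low array above (2.27%, against 11.4% of all genes). Beside the 7 called genes and Col4a2, Col5a3, Col6a2 and Col6a3, the 12 include Col12a1, a fibril-associated chain of dense tissue, at -0.32. Col13a1 differed by 0.14. Col4a2, Col5a3, Col6a2, Col12a1 and Col13a1 were named after their values were seen. Between medium and high, 12 of 44 lay lower without overlap (27.3%, against 4.93%) and 2 higher (against 5.77%). Between low and medium 5 of 44 lay lower (11.4%, against 7.58%) and 1 higher (against 9.25%).

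The 3 genes with more than 1 probe set did not all give the same size of difference. For Col6a1 the dimmer probe set showed the wider gap, at 3.44, 3.19 and 3.46 in Ly6C low, 3.68, 3.82 and 3.36 in Ly6C medium and 7.55, 7.44 and 5.55 in Ly6C high. Its low minus high difference was -3.49, beside -1.35 for the brighter probe set used in the fit. With the mean of the probe sets, Col6a1 also passed between medium and high (limma adjusted p = 0.0247). For Col1a2 the dimmer probe set gave -2.79, beside -4.53, with no overlap between low and high in either. For Col5a1 the dimmer probe set was flat, at 3.50 to 3.60 in low, 3.53 to 3.67 in medium and 3.59 to 3.67 in high.

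**Figure D3:**
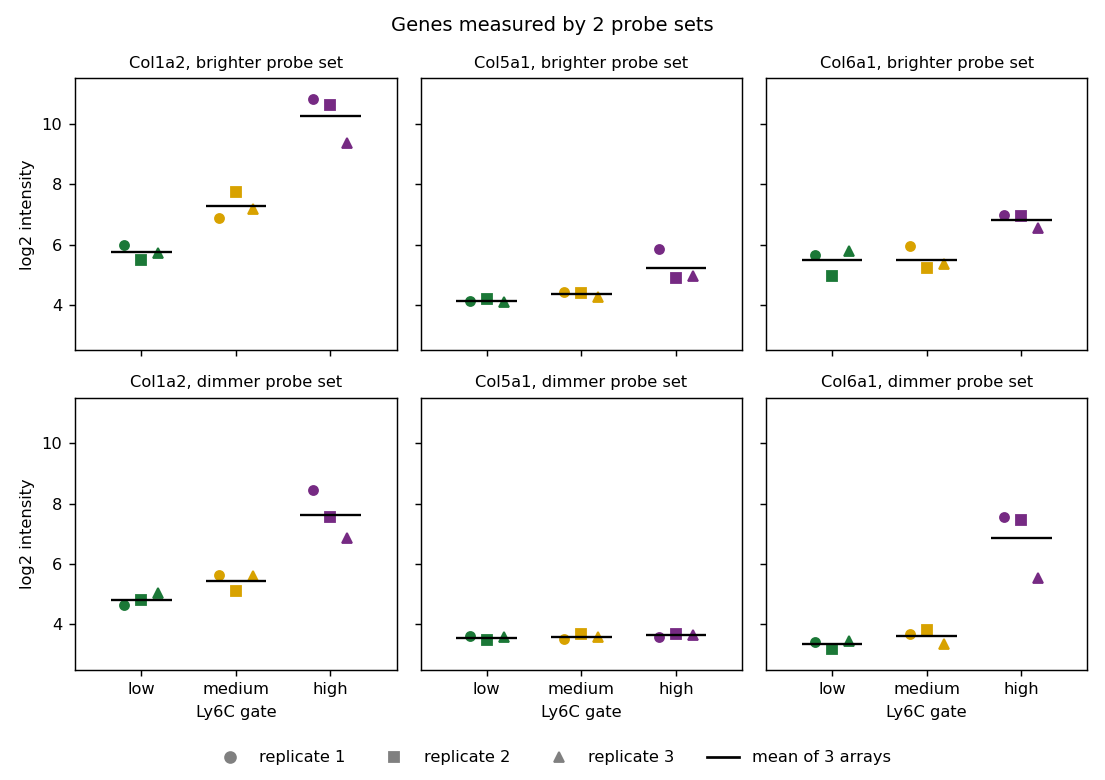
Log2 intensity by Ly6C gate for the brighter (top) and dimmer (bottom) probe set of Col1a2, Col5a1 and Col6a1, with a symbol per replicate and a bar for the mean of 3 arrays. Both Col1a2 and both Col6a1 probe sets are highest in Ly6C high, and the dimmer Col5a1 probe set stays between 3.50 and 3.67.

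The high arrays were unequal among themselves. Of the 7 collagen genes lower in low, all 7 were highest on Ly6C high replicate 1 and 6 were lowest on Ly6C high replicate 3, the exception being Col5a1. Across those 7 genes the 3 high arrays spanned 0.20 to 1.52 on the log2 scale. The 8 fibroblast markers other than collagens that were lower in low were all highest on high replicate 1 and lowest on high replicate 3. The markers that did not pass, Pdgfrb, Twist2 and Fap, were lowest on high replicate 2, and Pdgfrb and Twist2 were highest on high replicate 3. The means over endothelial markers, chondrocyte and bone markers, and collagen processing, folding and receptor genes were also highest on high replicate 1 and lowest on high replicate 3. For pericyte and smooth muscle markers, Schwann cell markers and collagen-degrading enzymes the mean was highest on high replicate 1 but lowest on high replicate 2. Means over monocyte and macrophage, keratinocyte and skeletal muscle markers were highest on high replicate 2. The share of all genes highest on high replicate 1 and lowest on high replicate 3 was not counted.

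Fibroblast markers were read in the same comparisons, although a sort on CD11b should leave out fibroblasts, which lack it. Of 11 such markers, none of them a collagen, 8 were lower in low than in high (2.32% of all genes were), 0 were higher (3.35%) and 3 did not pass, with a median log2 difference of -2.18. In medium against high 5 of 11 were lower (0.198% of all genes), with a median of -1.69. Among these, the calls of Dcn, Dpt and Lum held for 9, 4 and 2 of the 9 single-array omissions. With only the medium and high arrays fitted they were lost (limma adjusted p = 0.0707, 0.129 and 0.137). The mean over the 11 markers was 4.42 to 4.52 on the low arrays, 4.69 to 4.93 on the medium arrays and 6.08 to 7.0 on the high arrays. The mean over the 11 fibrillar collagens was 4.58 to 4.72 in low, 4.95 to 4.99 in medium and 5.62 to 6.16 in high. The part of fibroblast RNA in the collagen differences was not tested, and in sorted pools fewer cells of a type and less RNA per cell cannot be told apart.

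Dcn, which encodes the collagen-binding proteoglycan decorin, stood at 7.26, 7.36 and 7.42 in Ly6C low, 8.37, 8.28 and 8.37 in Ly6C medium and 11.11, 10.54 and 10.46 in Ly6C high. Dpt, Lum and Thy1 are further markers of dermal fibroblasts, and the first of them encodes a matrix protein of the dermis. The low minus high differences were -3.36 for Dcn, -4.03 for Dpt, -3.92 for Lum and -2.18 for Thy1 (limma adjusted p = 9.8e-05, 0.00122, 0.00149 and 0.0176). The Thy1 call was lost without Ly6C low replicate 1 or 2 (up to 0.0533) and with only the low and high arrays fitted (0.0732). Pdgfrb, Twist2 and Fap, named because they are the 3 that did not pass, were at -0.40, 0.03 and -0.59.

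Markers of other cells that make collagen were read in the same way. Of all genes, 2.32% were lower in low than in high and 3.35% were higher. At an unadjusted limma p under 0.05, 7.46% were lower, and 8.76% had every low array below every high array. Of 10 endothelial markers 1 was lower in low (Kdr) and 0 higher, while 4 were lower at an unadjusted p under 0.05 and 3 had every low array below every high array, with a mean of 4.28 to 4.65 in low, 4.46 to 4.58 in medium and 4.73 to 5.18 in high. Of 8 pericyte and smooth muscle markers 0 were lower and 1 (Cspg4) was higher. Of 7 chondrocyte and bone markers 1 was lower (Comp) and 0 higher. Among 11 keratinocyte markers 1 (Sfn) was higher, among 5 Schwann cell markers 1 (Pmp22) was higher, and limma passed 0 of 8 skeletal muscle markers, of which 1 was lower at an unadjusted p under 0.05. Of 10 monocyte and macrophage markers 3 were lower in low (Ly6c2, Ccr2 and Fcgr1) and 1 was higher (Mertk), with a mean of 10.14 to 10.22 in low, 10.47 to 10.56 in medium and 10.52 to 10.75 in high. The parts of these cells in the collagen differences were not tested.

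**Figure D4:**
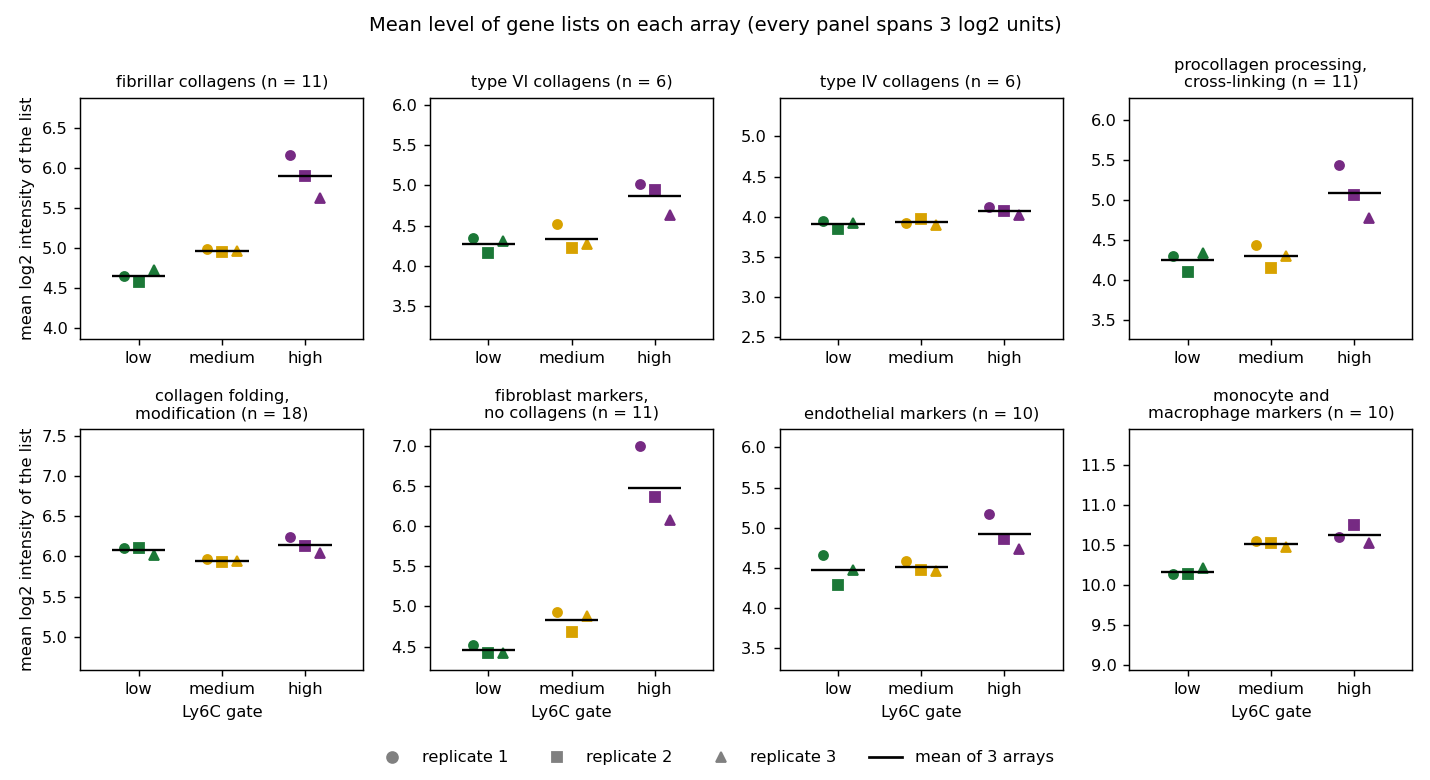
Mean log2 intensity of 8 gene lists on each array by Ly6C gate, with a symbol per replicate and a bar for the mean of 3 arrays; each panel spans 3 log2 units. Fibrillar, type VI and type IV collagens, procollagen processing genes, non-collagen fibroblast markers and endothelial markers are highest on the high arrays. Within Ly6C high these lists are highest on replicate 1 and lowest on replicate 3.

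Genes that fold, process, bind or degrade collagen were read as lists against the shares over all genes, 2.32% lower and 3.35% higher in low than in high. Of 11 measured genes for procollagen processing and cross-linking, 4 were lower, 0 higher and 7 did not pass, with a median of -0.48. Loxl1, an oxidase that cross-links matrix fibres, stood at 3.57, 3.35 and 3.61 in Ly6C low, 3.98, 3.86 and 3.98 in Ly6C medium and 6.65, 5.39 and 5.23 in Ly6C high (4.76-fold lower in low, limma adjusted p = 0.00466). Pcolce, an enhancer of the protease that trims procollagen, fell to a level 5.39-fold below high (adjusted p = 0.00787), and its relative Pcolce2 was 2.96-fold lower (adjusted p = 0.0130, but 0.0547 without low replicate 2 and 0.0574 with only the low and high arrays fitted). Lox, the founding lysyl oxidase, was 3.33-fold lower (adjusted p = 0.0298), which did not hold for 5 of the 9 single-array omissions (up to 0.106) or with only the low and high arrays fitted (0.0876). Bmp1, the trimming protease itself, was at -1.32 and did not pass (adjusted p = 0.051). In medium against high limma passed 0 of these 11 (0.239% of all genes), and 6 were lower at an unadjusted p under 0.05 (against 3.81% of all genes).

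Of 18 measured genes for collagen folding and modification inside the cell, 2 were lower in low, 2 higher and 14 did not pass, with a median of -0.14. Colgalt1, which adds galactose to collagen lysines, stood at 8.55, 8.57 and 8.16 in Ly6C low, 7.77, 7.94 and 7.71 in Ly6C medium and 7.72, 7.38 and 7.20 in Ly6C high (1.99-fold higher in low, limma adjusted p = 0.0102). Plod1, a lysyl hydroxylase, was 2.20-fold higher (adjusted p = 0.0423), and P4ha1, a prolyl hydroxylase subunit, was 1.50-fold lower (adjusted p = 0.0347). The Plod1 call did not hold for 7 of the 9 single-array omissions (up to 0.138), nor the P4ha1 call for 6 of them (up to 0.119), and with only the low and high arrays fitted both were lost (0.100 and 0.0608). Tmem38b, an ion channel of the endoplasmic reticulum, was 2.14-fold lower (adjusted p = 0.0185, but 0.0746 without low replicate 1 and 0.0708 with only the low and high arrays fitted). Serpinh1, the collagen chaperone of the endoplasmic reticulum, was at 5.59, 5.32 and 5.26 in Ly6C low, 4.99, 4.36 and 4.70 in Ly6C medium and 6.25, 5.79 and 5.69 in Ly6C high. Serpinh1 and Bmp1 were chosen after its values were seen, and the adjusted p of Serpinh1 was 0.190 for low against high and 0.0578 for medium against high.

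Collagen receptors and degrading enzymes also split. Of 11 measured receptors, Itga1, an integrin chain that binds type IV collagen, lay 2.96-fold below high in low (limma adjusted p = 0.0172, lost without low replicate 1 or 2 or high replicate 3, up to 0.0610). Adgrg1, an adhesion receptor that binds type III collagen, was 2.87-fold higher (adjusted p = 0.0129), and 9 did not pass. Of 6 degrading enzymes, Mmp2, a gelatinase made by fibroblasts, lay 9.70-fold below high in low (adjusted p = 0.00393), and Mmp8, the collagenase of neutrophils and monocytes, was 6.89-fold lower (adjusted p = 0.00222). Ctsk, a lysosomal protease that cuts collagen, was 2.47-fold higher (adjusted p = 0.0345, not held for 6 of the 9 single-array omissions, up to 0.113). The other 3 did not pass.

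**Figure D5:**
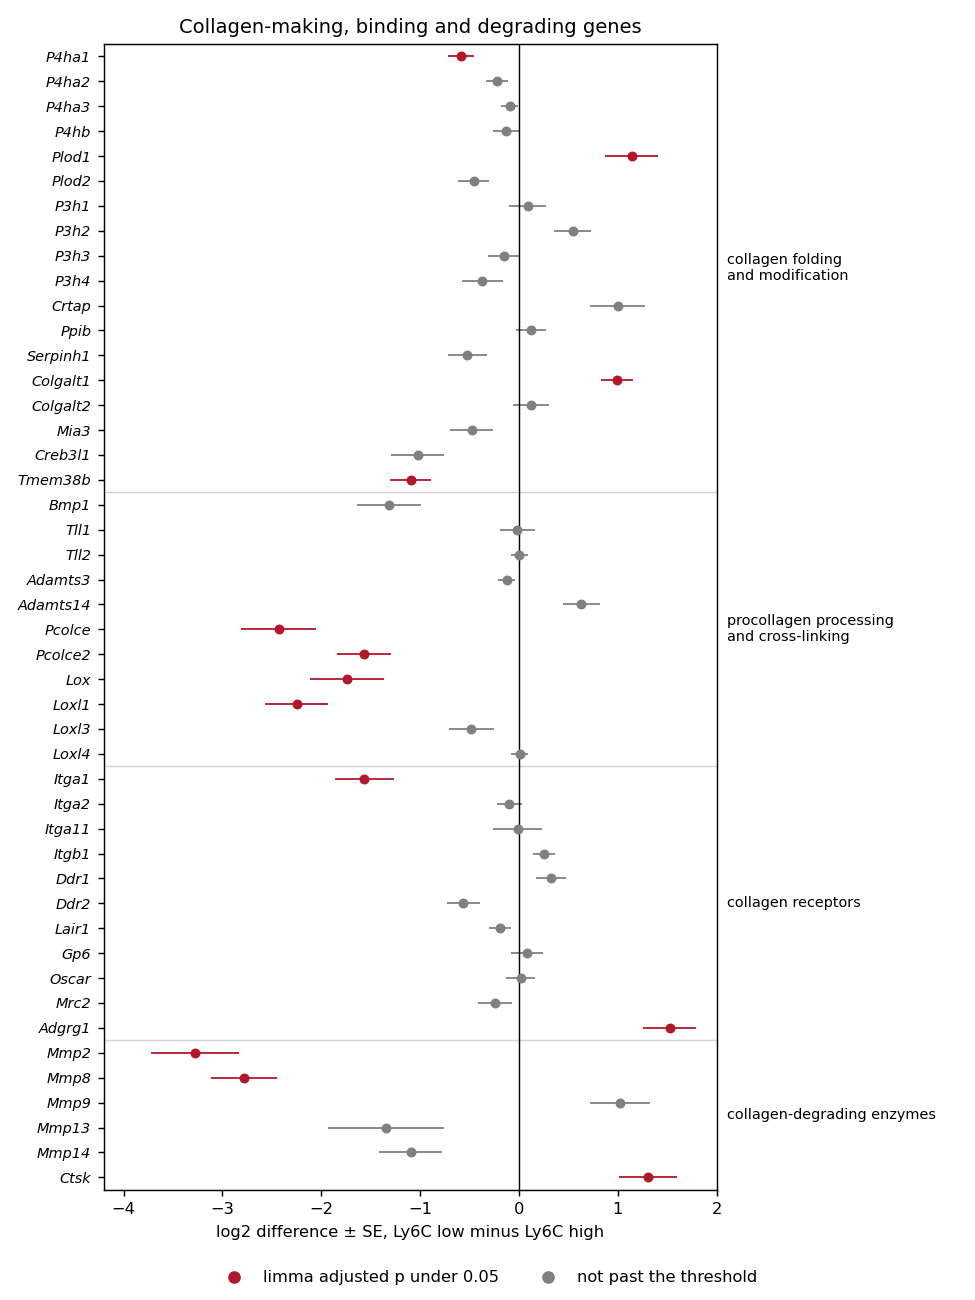
Log2 difference between Ly6C low and Ly6C high (points, with SE of the limma fit as bars) for genes that fold, process, bind or degrade collagen. Red points passed a limma adjusted p of 0.05; the processing genes past the threshold lie at -1.57 to -2.43, and the folding genes past it lie on both sides of 0.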

How the data were processed

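Expression was measured on Affymetrix arrays in 9 sorted samples. The deposited values are log2 intensities that the authors made with RMA, per the submitters' processing notes (version, settings and genome build not given in the sources used here); RMA corrects the background, normalizes between arrays and summarizes each probe set. They were used as deposited. Arrays give no read depth, so precision depends on how many arrays each gate has and on the spread of each gene among them.

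Of 41345 probe sets, 23521 carried a single gene symbol and were used. The other 1814 with several symbols (1 of them with a collagen gene) and 16010 that the probe table does not list were left out. RefSeq names were found for 23328 of the probe sets used. A gene took its probe set with the highest mean.

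R 4.3.3 and limma 3.58.1 (lmFit, eBayes, two-sided) fitted all 9 arrays together with 6 residual degrees of freedom and no block, with Benjamini-Hochberg adjustment over 22180 genes and a threshold of 0.05. The script was tested on simulated data. No filter on dim genes was used. Replicate numbers were not treated as pairs. Named were collagen genes past the threshold, those with a difference of at least 1 and no overlap, the highest of each class, and the largest calls of the other lists. The members and lists were chosen with earlier results of these data known. Alternatives covered normalization, probe sets, dim genes, priors, array weights, the replicate number as a block, the gates in the fit and leaving out each array. Promoter windows came from RefSeq on GRCm38.p6. Motifs were searched as exact letters on both strands.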

Additional observations from a re-analysis of the deposited data

How the results depend on the processing

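Across the alternatives the collagen count moved mostly through the number of arrays and the filter on dim genes. For low versus high, 7 collagen genes passed, 6 to 9 under the alternatives other than the filter at a log2 value of 6, under which 4 collagen genes are left and 4 passed, and 5 to 8 without each array in turn. For medium versus high, 5 passed, against 3 with that filter, 3 with the replicate block, 0 with only the 2 gates compared and 0 to 6 without each array. For low versus medium, 0 passed, against 1 with either filter (Col1a2) and 0 to 1 without each array. Over all genes, low versus high gave 1258, 644 with only the 2 gates compared and 596 to 1243 without each array. Medium versus high gave 53, against 1 and 2 to 72, and low versus medium 427, against 211 and 119 to 522. Fewer genes tested and fewer arrays are part of how these alternatives are built. Low versus medium had 307 higher and 120 lower, and 242 and 162 with quantile normalization repeated.

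Col6a2 passed for low versus high with quantile normalization (limma adjusted p = 0.0339), arrays centred (0.0411), the filter at the array median (0.0378) and the replicate block (0.0326). Small differences between low and medium changed sign. Col4a1 was at 0.03 and became -0.0219 with quantile normalization, and ranged from -0.007 to 0.0915 without each array. Col6a2 was at -0.01 and became 0.0036 with arrays centred and 0.12 with array weights, ranging from -0.18 to 0.21 without each array. Without each array Col5a2 ranged from -0.186 to 0.0679, Col6a1 from -0.19 to 0.23 and Col6a3 from -0.0371 to 0.115. The cause of these changes was not tested.

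Arrays with the same replicate number in different gates had correlated deviations from the gate means of 0.0174 to 0.388 (9 pairs), and those with different numbers -0.233 to 0.151 (18 pairs). Not every same-number pair was over 0.1 and not every array correlated best with its own number, so the numbers were not taken as pairs. The 3 same-number pairs of low and medium were all over 0.1 (0.112 to 0.238), and that comparison had 0 collagen calls with or without the replicate block. With the replicate block, low versus high gave 1564 genes and 8 collagen genes, medium versus high 61 and 3, and low versus medium 629 and 0. Col4a1 and Col5a2 were the medium versus high calls lost with it (adjusted p = 0.0620 and 0.0922). Alternatives for named genes outside the collagen family were chosen after seeing the data.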
